A study of Mus musculus with 17 samples.

Results

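Smo, the membrane protein that carries the Hedgehog signal into the cell, and 9 genes that work on either side of it were followed through 17 single whole mouse embryos. The 9 are the co-receptors Gas1, Cdon and Boc, the Smo-binding ciliary proteins Evc and Evc2, the ciliary kinesin Kif7, the Gli-binding inhibitor Sufu, and the transcription factors Gli2 and Gli3. All 10, taken as named members of the pathway, were found among the 41709 gene symbols of the deposited table and passed the filter on low values in each comparison. Disp1_CS_INDEL denotes 4 embryos at E9.5 (embryonic day 9.5) that carry a CS and an INDEL allele of Disp1, obtained by mating Disp1CS/+ females with Disp1INDEL/+ males. Disp1_WT denotes the 4 wild-type E9.5 embryos of that experiment. Myo10_m1J denotes 5 embryos at E8.5 homozygous for the m1J allele of Myo10, from heterozygous parents. Myo10_WT denotes 4 Myo10+/+ embryos at E8.5. All are C57BL/6J, and no driver or tissue restriction of any allele is given. Each embryo is a separate animal, but which embryos shared a litter is not given. In whole embryos, fewer cells of a type and less RNA per cell cannot be told apart.

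Hedgehog ligands are lipid-modified proteins, and Disp1 is needed for their release from the cells that make them. Myo10 is an unconventional myosin that moves to the tips of filopodia and of cytonemes, the thin extensions along which signalling proteins can travel. On the receiving cell, Gas1, Cdon and Boc bind the ligand together with Ptch1. Binding ends the block that Ptch1 places on Smo, and Smo then gathers in the primary cilium, where it acts with Evc and Evc2 near the cilium's base. There it releases the Gli proteins from Sufu, with Kif7 at the cilium's tip. Gli2 acts mainly as an activator, and Gli3 is mainly trimmed to a repressor when no ligand is present. In the early embryo this pathway patterns the ventral neural tube and the somites. In the mouse neural tube, transcripts of Gas1, Boc and Gli3 are known to be low where signalling is strong, whereas Ptch1, Gli1 and Hhip are transcribed in response to it.

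The values are TPM, transcript abundances scaled to a fixed total in each library, which are corrected for transcript length and so can be compared between genes. TPM keeps no read depth, so the precision of a single library is unknown. Libraries of the 2 ages differed in kind. The summed share of 5 structural RNAs was 0.00480 to 0.0132% at E9.5 and 29.7 to 44.5% at E8.5, and that of 58 replication-dependent histone genes was 0.0176 to 0.0229% at E9.5 and 6.30 to 8.08% at E8.5. Both classes mostly lack a poly(A) tail. In the targeted genes, Myo10 averaged 3.61 ± 0.885 TPM in Myo10_m1J and 25.8 ± 6.02 TPM in Myo10_WT (SD, n = 5 and 4; exact permutation p = 0.0159, the smallest this design allows). Disp1 averaged 14.3 ± 1.99 TPM in Disp1_CS_INDEL and 17.5 ± 1.74 TPM in Disp1_WT (SD, n = 4 each; exact permutation p = 0.0571). Marker lists of neural tube, mesenchyme and somite, heart and gut were detected in every group. Disp1_CS_INDEL replicate 1 and Disp1_WT replicate 3 stood apart at E9.5, with 52.6 and 48.1 TPM of summed caudal markers against 159.7 to 225.7 TPM in the other 6 embryos. Disp1_WT replicate 3 also held 998.2 TPM of yolk sac endoderm markers and 748.3 TPM of decidua and trophoblast markers. Myo10_WT replicate 1 had the least caudal marker signal of the E8.5 embryos, with 116.7 TPM against 201.5 to 482.2 TPM. Embryos within each E8.5 group also differed widely in other markers. Summed early epiblast markers were 4.05 to 113.5 TPM in Myo10_m1J and 18.9 to 100.4 TPM in Myo10_WT. Primitive erythroid markers were 83.1 to 4997 TPM in Myo10_m1J and 300.2 to 1814 TPM in Myo10_WT.

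**Figure D1:**
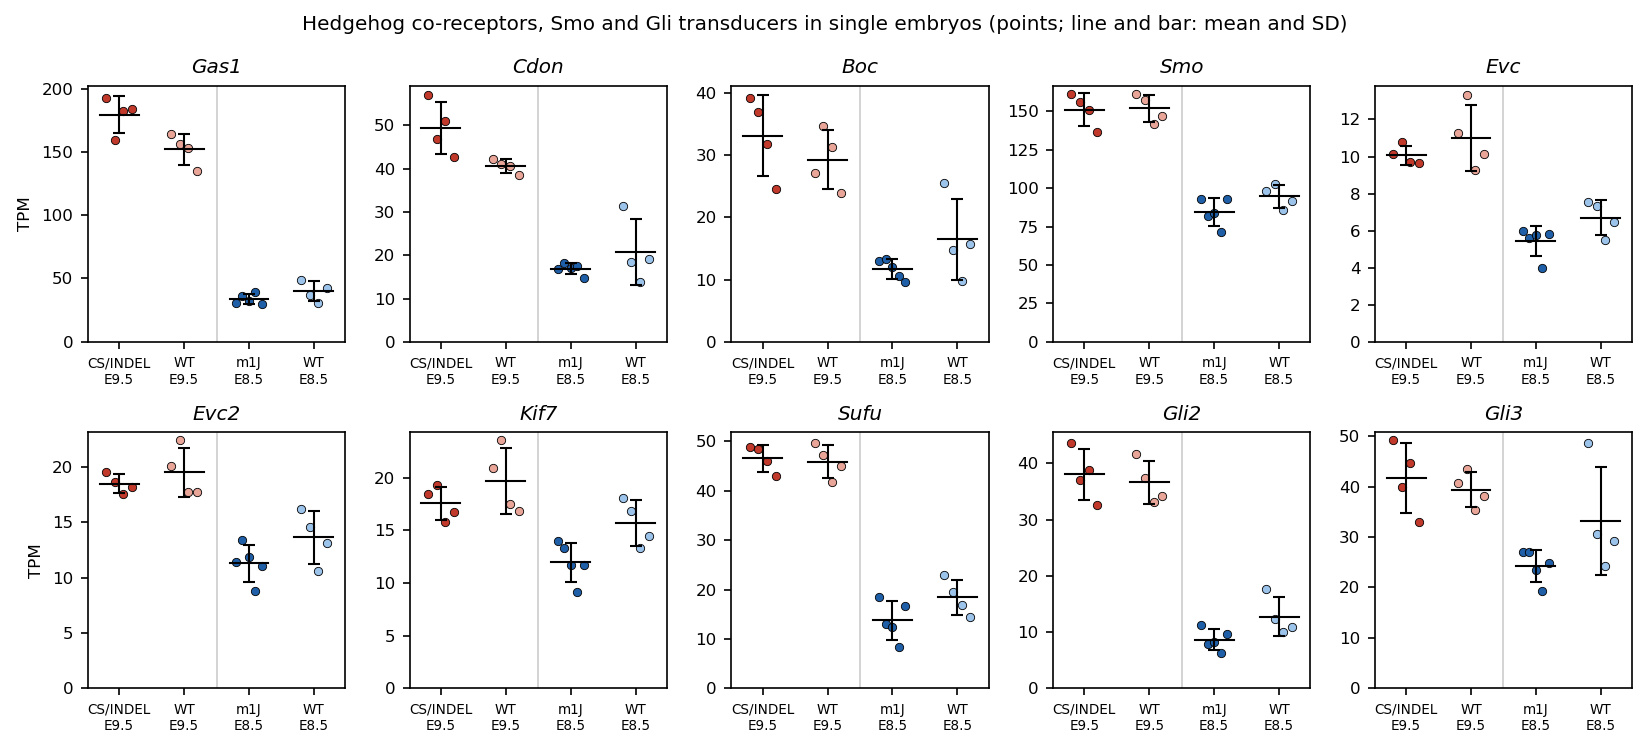
Level of each of the 10 transcripts (TPM, vertical axis from 0) in every embryo by group, with the group mean as a line and the SD as a bar. Smo and Gas1 stood apart above the other 8 genes in both E9.5 groups, Smo alone stood apart at the top in both E8.5 groups, and Evc was lowest in all 4.

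The order of the 10 levels was not the same at both ages. At E9.5, Smo averaged 151.1 ± 10.9 TPM in Disp1_CS_INDEL and 152 ± 8.90 TPM in Disp1_WT (SD, n = 4 each), and Gas1 overlapped it in both groups. At E8.5, Smo averaged 84.5 ± 8.94 TPM in Myo10_m1J and 94.7 ± 7.30 TPM in Myo10_WT (SD, n = 5 and 4), and every embryo of a group had more Smo than any of that group had of the next gene, Gas1. Among genes with a group mean of at least 1 TPM, Smo stood between the percentiles 91.3 and 92.5 in all 4 groups. Gas1 stood at the percentiles 93.8 in Disp1_CS_INDEL and 92.5 in Disp1_WT, and at 77.8 in Myo10_m1J and 79.4 in Myo10_WT. Gli2 was sixth of the 10 at E9.5 and ninth at E8.5, at the percentiles 70.1 in Disp1_CS_INDEL and 69.4 in Disp1_WT, and at 41.8 in Myo10_m1J and 49.7 in Myo10_WT. Neighbours among Cdon, Sufu, Gli3, Gli2 and Boc overlapped in both E9.5 groups, as did those from Cdon down to Gli2 in both E8.5 groups, so their order is not separated from the spread between embryos.

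The regions around the start sites of 6 members are shown, in the pairs whose levels are set against each other in the results. Each is a window of 300 bases, 250 before and 50 after the start, on the strand of the gene, taken from RefSeq on GRCm38.p6, a different build from that of the deposited values. Of the 10 members 9 had a window, Boc not among them. In Gas1 and Cdon, the co-receptors with the highest levels, capitals mark the CCAAT box (CCAAT, or ATTGG where it lies on the other strand).
Gas1, chr13:60177486-60177785, minus strand: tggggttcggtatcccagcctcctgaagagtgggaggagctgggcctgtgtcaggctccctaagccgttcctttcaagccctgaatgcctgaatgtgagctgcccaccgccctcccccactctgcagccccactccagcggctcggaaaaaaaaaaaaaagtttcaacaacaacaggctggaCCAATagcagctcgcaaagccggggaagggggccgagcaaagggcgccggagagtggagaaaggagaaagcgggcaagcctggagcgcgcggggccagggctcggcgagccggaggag
Cdon, chr9:35451826-35452125, plus strand: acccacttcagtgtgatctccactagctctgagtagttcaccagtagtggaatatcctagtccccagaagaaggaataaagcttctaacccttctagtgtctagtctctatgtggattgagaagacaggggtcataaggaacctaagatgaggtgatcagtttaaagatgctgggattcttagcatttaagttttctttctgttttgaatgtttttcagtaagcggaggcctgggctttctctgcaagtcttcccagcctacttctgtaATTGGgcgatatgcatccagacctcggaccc
In Gli2 and Gli3, the activator and the repressor of the pair, capitals mark the GC box, GGGCGG, a short element bound by Sp factors.
Gli2, chr1:119053570-119053869, minus strand: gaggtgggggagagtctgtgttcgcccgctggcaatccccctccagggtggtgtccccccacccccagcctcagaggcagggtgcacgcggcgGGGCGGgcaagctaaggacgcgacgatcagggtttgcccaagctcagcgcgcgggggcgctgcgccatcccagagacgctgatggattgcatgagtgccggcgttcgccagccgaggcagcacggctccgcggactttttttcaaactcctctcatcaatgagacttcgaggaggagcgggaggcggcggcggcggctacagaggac
Gli3, chr13:15463473-15463772, plus strand: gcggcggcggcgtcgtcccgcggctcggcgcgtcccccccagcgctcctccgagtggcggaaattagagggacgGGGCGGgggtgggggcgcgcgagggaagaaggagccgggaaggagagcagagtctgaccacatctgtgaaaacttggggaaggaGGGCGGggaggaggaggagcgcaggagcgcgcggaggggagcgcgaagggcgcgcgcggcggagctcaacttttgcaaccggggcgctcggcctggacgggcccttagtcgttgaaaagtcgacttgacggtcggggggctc
In Evc and Evc2, partners that neighbour each other in the genome, capitals mark a run of 13 bases that both hold, in opposite orientation on the strands of the genes.
Evc, chr5:37336832-37337131, minus strand: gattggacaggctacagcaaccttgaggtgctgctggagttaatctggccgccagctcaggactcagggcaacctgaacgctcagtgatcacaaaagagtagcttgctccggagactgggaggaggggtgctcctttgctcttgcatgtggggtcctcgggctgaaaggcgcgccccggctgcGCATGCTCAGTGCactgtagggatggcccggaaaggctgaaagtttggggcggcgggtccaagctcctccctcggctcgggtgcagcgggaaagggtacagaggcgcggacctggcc
Evc2, chr5:37338228-37338527, plus strand: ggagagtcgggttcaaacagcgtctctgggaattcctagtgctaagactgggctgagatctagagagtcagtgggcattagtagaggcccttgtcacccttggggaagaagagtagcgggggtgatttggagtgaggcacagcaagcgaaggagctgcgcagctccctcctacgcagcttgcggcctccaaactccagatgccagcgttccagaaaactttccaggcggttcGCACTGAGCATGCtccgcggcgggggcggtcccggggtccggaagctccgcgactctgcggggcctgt

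Evc and Evc2 lie head to head on chromosome 5 with start sites 1597 bases apart and are transcribed away from each other. The shared run, GCATGCTCAGTGC, or GCACTGAGCATGC on the other strand, starts 67 bases before the Evc start and 18 bases before the Evc2 start, and 10 of 32851 windows (0.0304%) hold it on either strand. CCAAT was found on either strand in 4 of the 9 members with a window (Gas1, Cdon, Sufu and Evc), against 37.4% of all windows. GGGCGG was found in 7 of 9, all but Smo and Cdon, against 35.7%. The Gli consensus GACCACCCA, searched on both strands, was in 0 of 9 windows and in 0.253% of all, so these letters are not in these windows. The Cdon window had 3 CpG dinucleotides and 44.7% G and C, and that of Gli3 had 39 and 71.0%, against medians of 7 and 52.7% over all windows. None of these motifs contains another, and a match describes the sequence only.

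The co-receptors Gas1 and Cdon had the smallest p values of the 10 members between Disp1_CS_INDEL and Disp1_WT on TPM as deposited, although no member passed the test across all genes. Gas1, a lipid-anchored protein of the cell surface, and Cdon, a membrane protein of the immunoglobulin family, were higher on average in Disp1_CS_INDEL, and Boc, the close relative of Cdon, was less clearly so. Of all members, 0 of 10 had an adjusted p under 0.05 (limma, Benjamini-Hochberg), against 0.0301% of the 13294 genes tested. At an unadjusted limma p under 0.05, 2 of 10 were higher, Gas1 and Cdon, against 1.03% of genes higher at that level. Of the 10, 6 had a positive difference, and the median log2 difference of the 10 was 0.04, against 0.01 over all genes. The summed level of 6 gut endoderm markers, all 6 detected, was 448.5 to 584.8 TPM in Disp1_CS_INDEL and 592.9 to 663.7 TPM in Disp1_WT, without overlap. Its part in these differences was not tested. The 6 did not move alike. Their log2 differences were -0.31 for Krt8, -0.24 for Krt18, -0.14 for Foxa1, -0.13 for Cldn6, -0.03 for Epcam and 0.10 for Sox17. Summed neural tube markers (402.8 to 512.6 TPM in Disp1_CS_INDEL, 423.7 to 483.7 TPM in Disp1_WT) and mesenchyme and somite markers (418.5 to 476.0 TPM in Disp1_CS_INDEL, 403.0 to 492.4 TPM in Disp1_WT) overlapped. Within these lists Zic1 and Prrx1 were higher in Disp1_CS_INDEL, at log2 differences of 0.39 and 0.27, and Pax1 was lower at -0.28. Each had an unadjusted limma p under 0.05, unlike the rest of these lists, and none passed across all genes.

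Cdon had 56.9, 46.9, 51.1 and 42.8 TPM in the Disp1_CS_INDEL embryos, against 42.3, 41.2, 40.7 and 38.6 TPM in the Disp1_WT embryos. All 4 Disp1_CS_INDEL embryos lay above all 4 Disp1_WT embryos, the lowest of them by a narrow margin. Cdon was the only member whose groups did not overlap, 1 of 10, against 0.895% of all genes that were higher without overlap. The log2 difference was 0.27 with a standard error of 0.081 (95% interval 0.09 to 0.45; limma adjusted p = 1, unadjusted p = 0.00783). Gas1 had 192, 159, 183 and 184 TPM in Disp1_CS_INDEL, against 164, 156, 153 and 135 TPM in Disp1_WT. Here 3 of the 4 Disp1_CS_INDEL embryos exceeded every Disp1_WT embryo, and the fourth lay among them. The log2 difference of Gas1 was 0.24 with a standard error of 0.074 (95% interval 0.08 to 0.40; limma adjusted p = 1, unadjusted p = 0.0086). Boc had 39.2, 37.0, 31.8 and 24.6 TPM in Disp1_CS_INDEL and 27.1, 34.7, 31.3 and 24.0 TPM in Disp1_WT, with a log2 difference of 0.16 (95% interval -0.17 to 0.50). That difference was 0.08 without Disp1_WT replicate 4 or without Disp1_CS_INDEL replicate 1, 0.11 without Disp1_CS_INDEL replicate 2, 0.25 without Disp1_WT replicate 2 and 0.30 without Disp1_CS_INDEL replicate 4. Its groups overlapped over most of their range.

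Summed over the 3 co-receptors, the level was 262 ± 19.95 TPM in Disp1_CS_INDEL and 221.9 ± 16.9 TPM in Disp1_WT (SD, n = 4 each), with every Disp1_CS_INDEL embryo above every Disp1_WT embryo, at 243.0 TPM or more against 233.5 TPM or less. Gas1 made up 68.5 ± 3.40% of that sum in Disp1_CS_INDEL and 68.5 ± 1.28% in Disp1_WT, so the make-up of the sum was close between the groups. Without the 2 embryos low in caudal markers, a setting chosen after seeing the data, the log2 differences were 0.21 for Gas1, 0.20 for Cdon and 0.11 for Boc, and that of Kif7 was -0.22. The range over 16 alternatives was 0.18 to 0.30 for Gas1 and 0.20 to 0.33 for Cdon, with limma adjusted p between 0.689 and 1 for Cdon and between 0.984 and 1 for Gas1.

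The rest of the set was close between the E9.5 groups. Smo had 162, 156, 151 and 136 TPM in Disp1_CS_INDEL and 161, 157, 142 and 147 TPM in Disp1_WT. Its log2 difference was -0.01 (95% interval -0.15 to 0.13), the narrowest interval among the members. Sufu, which holds Gli proteins in the cytoplasm, differed by 0.02 on the log2 scale (95% interval -0.13 to 0.17). Gli2 had 43.6, 37.1, 38.8 and 32.7 TPM in Disp1_CS_INDEL and 41.7, 37.5, 33.2 and 34.1 TPM in Disp1_WT, a log2 difference of 0.05 (95% interval -0.16 to 0.26). Gli3 had 49.2, 39.9, 44.6 and 32.9 TPM in Disp1_CS_INDEL and 40.7, 43.5, 35.3 and 38.1 TPM in Disp1_WT, a log2 difference of 0.07 (95% interval -0.19 to 0.32). The signs of these 4 small differences turned when single embryos were left out. Evc and Evc2 kept to narrow ranges, 9.64 to 10.8 TPM and 17.5 to 19.6 TPM in Disp1_CS_INDEL, against 9.25 to 13.3 TPM and 17.8 to 22.4 TPM in Disp1_WT. Kif7, Evc and Evc2 lay slightly lower on average, by log2 differences of -0.15 (95% interval -0.39 to 0.09), -0.11 (95% interval -0.34 to 0.12) and -0.07 (95% interval -0.25 to 0.11). Disp1_CS_INDEL replicate 1, with its low caudal signal, was the highest E9.5 embryo for 6 members, among them all 3 co-receptors, Smo, Gli2 and Gli3. After scaling it was highest for 3, Cdon, Boc and Gli3.

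**Figure D2:**
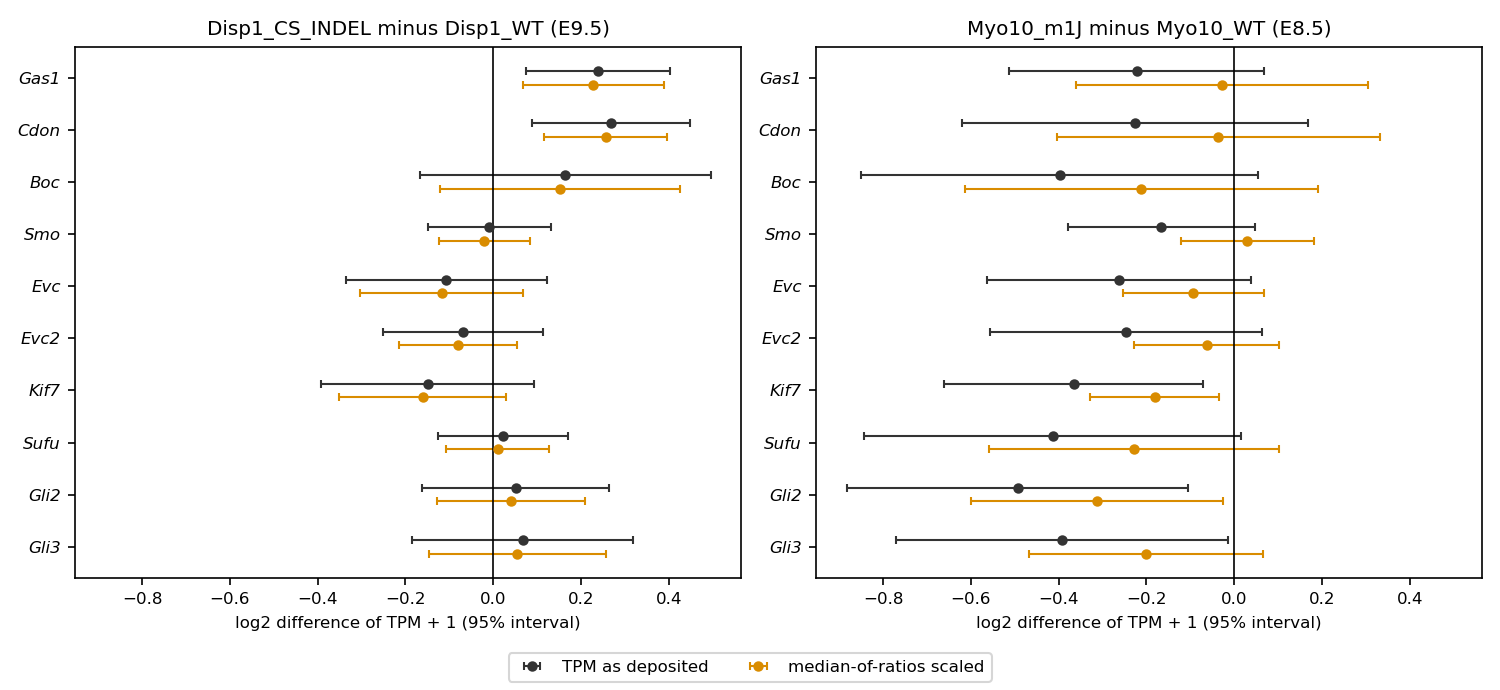
Log2 difference of TPM + 1 for each member with its 95% interval from limma, for Disp1_CS_INDEL minus Disp1_WT (left) and Myo10_m1J minus Myo10_WT (right), on TPM as deposited and after median-of-ratios scaling. At E9.5 the intervals of Gas1 and Cdon lie above 0 on both scales. At E8.5 all 10 differences are negative on TPM as deposited, and 9 are negative after scaling, where Smo is at 0.03.

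Set against the transcripts that respond to the pathway, the transducers moved little in Disp1_CS_INDEL. Ptch1 averaged 27.1 ± 2.50 TPM in Disp1_CS_INDEL and 37.6 ± 3.96 TPM in Disp1_WT (SD, n = 4 each), with no overlap and a log2 difference of -0.46 (exact permutation p = 0.0286, the smallest this design allows; limma adjusted p = 0.339). The ratio of Ptch1 to Smo within an embryo, which no scaling between libraries alters, was 0.172 to 0.191 in Disp1_CS_INDEL and 0.229 to 0.276 in Disp1_WT. The ratio of Gli1, a Gli factor made in response to the signal, to Gli2 was 0.305 to 0.431 in Disp1_CS_INDEL and 0.460 to 0.707 in Disp1_WT. Neither ratio overlapped between the groups. The ratio of Gli3 to Gli2 did overlap, at 1.09 ± 0.0634 in Disp1_CS_INDEL and 1.08 ± 0.0793 in Disp1_WT. Across the wider pathway, 0 of 7 ligand and release genes, 0 of 3 outputs (Ptch1, Gli1 and Hhip), 0 of 23 other reception and transduction genes and 0 of 15 cilium transport genes had a limma adjusted p under 0.05. At an unadjusted limma p under 0.05, 3 of the 3 outputs and 2 of the 7 ligand and release genes were lower, against 1.23% of all genes lower at that level. After median-of-ratios scaling 2 of the 3 outputs passed, both lower, against 0.0451% of all genes called lower on that scale: Ptch1 at -0.47 and Hhip, a ligand-binding inhibitor, at -0.60 (limma adjusted p = 0.0474 and 0.0459). Both were close to the threshold, and after scaling to protein-coding genes 0 of the 3 passed (limma adjusted p = 0.230 for Ptch1 and 0.103 for Hhip). Hhip was also a low transcript, at 1.75 ± 0.153 TPM in Disp1_CS_INDEL and 3.15 ± 0.294 TPM in Disp1_WT (SD, n = 4 each).

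In the E8.5 experiment all 10 members averaged lower in Myo10_m1J than in Myo10_WT, and so did most other genes. The summed level of 8 mesenchyme and somite markers, 7 of them at a mean of 1 TPM or more in each group, was 123.4 to 160.7 TPM in Myo10_m1J and 164.5 to 204.5 TPM in Myo10_WT, without overlap. That of 6 neural tube markers was 88.1 to 119.0 TPM in Myo10_m1J and 91.77 to 164.1 TPM in Myo10_WT, with overlap. No marker of either list was at 0 in every embryo of a group, and their part in the members' differences was not tested. Here 0 of 10 members had a limma adjusted p under 0.05 (the lowest was 0.473), against 0.00796% of 12560 genes, a single gene. At an unadjusted limma p under 0.05, 3 of 10 were lower, Gli2, Kif7 and Gli3, against 6.46% of genes lower at that level. The members' median log2 difference was -0.31 and that of all genes was -0.16, with 6.00% of all genes above 0. No member's groups were free of overlap, 0 of 10 lower and 0 of 10 higher, against 0.963% and 0.0318% of all genes.

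Gli2 had 11.3, 7.95, 8.23, 6.32 and 9.59 TPM in Myo10_m1J, against 17.7, 12.4, 9.96 and 10.8 TPM in Myo10_WT. In 4 of the 5 Myo10_m1J embryos Gli2 was below every Myo10_WT embryo. The log2 difference was -0.49 with a standard error of 0.18 (95% interval -0.88 to -0.10; limma adjusted p = 0.473, unadjusted p = 0.017). Kif7 had 14.0, 13.4, 11.7, 9.17 and 11.7 TPM in Myo10_m1J, against 18.1, 16.8, 13.3 and 14.5 TPM in Myo10_WT, a log2 difference of -0.37 (95% interval -0.66 to -0.07). Gli3 had 27.1, 27.0, 23.5, 19.3 and 24.8 TPM in Myo10_m1J, against 48.7, 30.6, 24.1 and 29.2 TPM in Myo10_WT, a log2 difference of -0.39 (95% interval -0.77 to -0.01). Myo10_WT replicate 1 stood alone at the top for Gli3, and without it the groups' means lay closer, at a log2 difference of -0.20. Sufu averaged 13.8 ± 3.95 TPM in Myo10_m1J and 18.4 ± 3.63 TPM in Myo10_WT (SD, n = 5 and 4), a log2 difference of -0.41 (95% interval -0.84 to 0.02). That difference was -0.26 without Myo10_m1J replicate 4 and -0.23 after median-of-ratios scaling. Sufu spread more between embryos of 1 group than at E9.5, between 8.44 and 18.5 TPM in Myo10_m1J.

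The co-receptors at E8.5 overlapped throughout. Gas1 had 30.7, 36.2, 32.0, 39.1 and 30.2 TPM in Myo10_m1J and 49.1, 37.1, 30.7 and 42.3 TPM in Myo10_WT, a log2 difference of -0.22 (95% interval -0.51 to 0.07). Cdon had 16.8, 18.2, 17.1, 17.5 and 14.7 TPM in Myo10_m1J and 31.5, 18.5, 13.7 and 19.2 TPM in Myo10_WT, a log2 difference of -0.23 (95% interval -0.62 to 0.17). The Myo10_m1J embryos were close to each other and sat inside the wide range of Myo10_WT. Without Myo10_WT replicate 1 the log2 differences were -0.12 for Gas1, -0.01 for Cdon and -0.17 for Boc. Boc averaged 11.7 ± 1.64 TPM in Myo10_m1J and 16.5 ± 6.55 TPM in Myo10_WT, with a log2 difference of -0.40 (95% interval -0.85 to 0.05). Smo averaged 89.2% of its Myo10_WT level in Myo10_m1J, a log2 difference of -0.17 (95% interval -0.38 to 0.05), and Evc and Evc2 differed by -0.26 (95% interval -0.56 to 0.04) and -0.25 (95% interval -0.56 to 0.06).

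The structural RNA share overlapped between the E8.5 groups, at 32.2 to 44.5% in Myo10_m1J and 29.7 to 36.9% in Myo10_WT, and the part it plays in each gene's difference was not tested. After median-of-ratios scaling, which divides each library by its median ratio to the typical library, the median of all genes was 0.01 and that of the members -0.14. Gli2 was then at -0.31 (95% interval -0.60 to -0.03) and Kif7 at -0.18 (95% interval -0.33 to -0.03), while Smo turned to 0.03. The limma adjusted p values on that scale were 0.767 for Gli2 and Kif7 and 0.926 for Smo. Myo10_WT replicate 1 was the highest of the 9 E8.5 embryos for 9 members (6 after scaling), and Myo10_m1J replicate 4 was the lowest for 7 (4 after scaling). That Myo10_m1J embryo also held the largest structural RNA share. Ptch1 averaged 32.8 ± 5.60 TPM in Myo10_m1J and 43.1 ± 4.71 TPM in Myo10_WT. Its groups did not overlap here either, at a log2 difference of -0.40 (exact permutation p = 0.0159, the smallest this design allows, and limma adjusted p = 0.473). After median-of-ratios scaling it was at -0.20 (limma adjusted p = 0.767). Gli1 was at -0.40 as deposited, with overlap (exact permutation p = 0.0317). The ratio of Ptch1 to Smo was 0.386 ± 0.0395 in Myo10_m1J and 0.454 ± 0.0158 in Myo10_WT, with ranges that just overlapped. Of the wider pathway, 0 of 7 ligand and release genes, 0 of 3 outputs (Ptch1, Gli1 and Hhip), 0 of 22 other reception and transduction genes and 0 of 15 cilium transport genes had a limma adjusted p under 0.05. At an unadjusted limma p under 0.05 the counts lower were 2, 2, 3 and 1 in that order, against 6.46% of all genes lower at that level.

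The mutant effects were also set against each other in a fit of all 17 libraries. For the Disp1 effect minus the Myo10 effect, 0 of 10 members had a limma adjusted p under 0.05 (the lowest was 0.586), against 0.0216% of 13910 genes. At an unadjusted limma p under 0.05, 3 of 10 were positive, against 4.69% of genes. These were Gas1 at 0.46, Gli2 at 0.55 and Cdon at 0.49 on the log2 scale, and 88.0% of all genes were positive in this contrast. After median-of-ratios scaling the median of all genes was -0.0040 and that of the members 0.27, with Smo, Evc and Evc2 on the other side of 0 at -0.03 or closer.

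The members' median log2 difference between the ages was 0.76 as deposited, larger in size than in either mutant comparison. Gli3 at 0.29 and Kif7 at 0.31 nevertheless differed less between the ages than between the E8.5 groups, at -0.39 and -0.37. After median-of-ratios scaling the median was 0.11 between the ages and -0.14 between the E8.5 groups. The 10 did not differ alike. On TPM as deposited, all 10 averaged higher in Disp1_WT at E9.5 than in Myo10_WT at E8.5, and 8 of 10 had a limma adjusted p under 0.05, against 69.4% of 13397 genes called higher and 10.2% called lower. That share of members is near the background, and the median of all genes was itself 0.62 on the log2 scale. Of the 10, 7 were higher without overlap between the groups, against 66.1% of all genes. Age, experiment and the difference in library make-up cannot be told apart in this design. The comparison is therefore read here relative to the other genes, after median-of-ratios scaling, on which 36.4% of 13333 genes were called higher and 36.2% lower, and after scaling to protein-coding genes, on which 27.4% were called higher and 44.5% lower.

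After median-of-ratios scaling 3 of 10 members were called higher and 2 lower, against 36.4% and 36.2% of all genes. After protein-coding scaling 3 were called higher and 4 lower, against 27.4% and 44.5%. These counts are near the shares of all genes, so they do not set the members apart as a group. Gas1, Gli2 and Sufu were called higher at E9.5 on all 3 scales, and in each of 17 alternatives. Gas1 averaged 152 ± 12.4 TPM in Disp1_WT and 39.8 ± 7.84 TPM in Myo10_WT (SD, n = 4 each), a ratio of means of 3.81. Its log2 difference was 1.92 as deposited, 1.25 after median-of-ratios scaling and 1.08 after protein-coding scaling (limma adjusted p = 1.69e-07, 5.54e-06 and 2.95e-05). Gli2 averaged 36.6 ± 3.85 TPM in Disp1_WT and 12.7 ± 3.47 TPM in Myo10_WT, with log2 differences of 1.48, 0.83 and 0.67 on the 3 scales (limma adjusted p = 5.44e-06, 0.000106 and 0.00171). Sufu averaged 45.9 ± 3.39 TPM in Disp1_WT and 18.4 ± 3.63 TPM in Myo10_WT, with log2 differences of 1.29, 0.63 and 0.46 (limma adjusted p = 3.29e-06, 9.63e-05 and 0.00264). Summed marker levels, in TPM as deposited, also differed between the ages without overlap, in both directions. Neural tube markers were at 423.7 to 483.7 TPM in Disp1_WT and 91.77 to 164.1 TPM in Myo10_WT, and mesenchyme and somite markers at 403.0 to 492.4 TPM in Disp1_WT and 164.5 to 204.5 TPM in Myo10_WT. Heart markers were at 1884 to 2003 TPM in Disp1_WT and 290.0 to 1395 TPM in Myo10_WT, and markers of primitive erythroid cells at 32710 to 43680 TPM in Disp1_WT and 300.2 to 1814 TPM in Myo10_WT. Against their sums, Nkx2-5 of the heart list was at -0.23 and Pdgfra of the mesenchyme and somite list at -0.16 on the log2 scale, neither called. Lower at E9.5 was the sum of gut endoderm markers, at 592.9 to 663.7 TPM in Disp1_WT and 866.1 to 1309 TPM in Myo10_WT. In that list Foxa1 was higher, at a log2 difference of 0.95, and the others ran from -0.30 for Epcam to -0.93 for Krt18. Early epiblast markers were lower too, at 1.32 to 3.08 TPM in Disp1_WT and 18.9 to 100.4 TPM in Myo10_WT. None of these markers was at 0 in every embryo of a group, and their part in the members' differences was not tested. The sums for decidua and trophoblast overlapped. Yolk sac endoderm markers were at 54.9 to 998.2 TPM in Disp1_WT and 827.6 to 2563 TPM in Myo10_WT. These overlapped only through Disp1_WT replicate 3, and the next highest Disp1_WT embryo held 92.9 TPM. Caudal markers were at 48.1 to 216.3 TPM in Disp1_WT and 116.7 to 482.2 TPM in Myo10_WT, overlapping only through Myo10_WT replicate 1. The part of these markers in the differences of members and other pathway genes was not tested.

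Gli3 and Kif7 went the other way relative to other genes. Gli3 averaged 39.4 ± 3.47 TPM in Disp1_WT and 33.2 ± 10.7 TPM in Myo10_WT (SD, n = 4 each), a log2 difference of 0.29 as deposited, which turned to -0.38 after median-of-ratios scaling and -0.56 after protein-coding scaling (limma adjusted p = 0.151, 0.0275 and 0.0113). Kif7 averaged 19.7 ± 3.16 TPM in Disp1_WT and 15.7 ± 2.18 TPM in Myo10_WT, a log2 difference of 0.31 as deposited, which turned to -0.34 and -0.51 on the scaled values (limma adjusted p = 0.0506, 0.00424 and 0.00207). For Gli3 the high Myo10_WT replicate 1 weighs on these values. Without it the log2 difference was 0.48 as deposited (limma adjusted p = 0.00128) and -0.24 after median-of-ratios scaling (limma adjusted p = 0.0153).

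Smo lay close to the median of all genes on all 3 scales. Its log2 difference was 0.68 as deposited, 0.00064 after median-of-ratios scaling (95% interval -0.13 to 0.13) and -0.18 after protein-coding scaling (limma adjusted p = 0.00623), where the medians of all genes were 0.62, 0.0061 and -0.14. Scaled over all 17 libraries, Smo averaged 112 ± 4.08 in Disp1_CS_INDEL, 113 ± 5.13 in Disp1_WT, 115 ± 9.37 in Myo10_m1J and 113 ± 6.64 in Myo10_WT, in scaled TPM. Cdon and Boc were called higher as deposited, at 1.00 and 0.85 on the log2 scale, but missed the threshold after median-of-ratios scaling at 0.34 and 0.20 (limma adjusted p = 0.0711 and 0.358). Evc and Evc2 had log2 differences of 0.64 and 0.50 as deposited. After median-of-ratios scaling they were at 0.03 and -0.15, and after protein-coding scaling at -0.14 and -0.32, the last with a limma adjusted p of 0.0224.

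**Figure D3:**
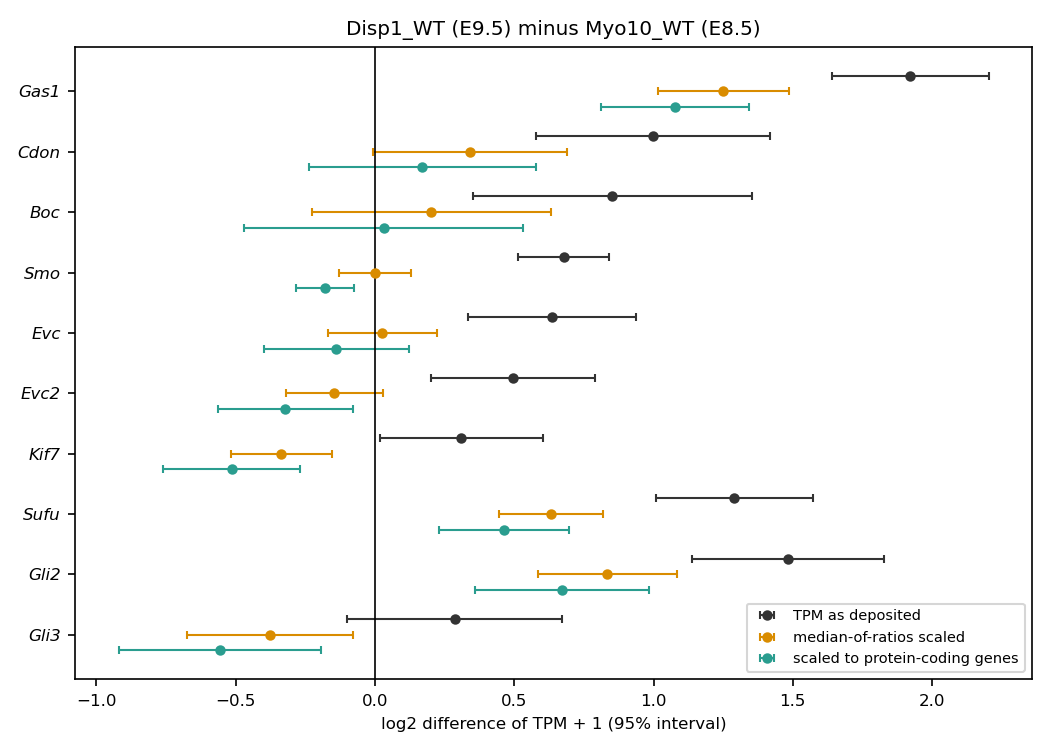
Log2 difference of TPM + 1 for each member, Disp1_WT (E9.5) minus Myo10_WT (E8.5), with its 95% interval from limma, on TPM as deposited and on 2 scaled versions. Gas1, Gli2 and Sufu lie above 0 on all 3 scales, whereas Gli3 and Kif7 lie above 0 as deposited and below 0 on both scaled versions.

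Ratios of 2 transcripts in the same embryo do not depend on the scaling between libraries. Gli3 with Gli2 and Sufu with Kif7 each pair a member called lower after scaling with one called higher. These ratios therefore restate the split from the same values and are no separate support for it. Age and library make-up cannot be told apart in them either. Gli3 and Gli2 were at near-equal levels at E9.5, with a ratio of 1.09 ± 0.0634 in Disp1_CS_INDEL and 1.08 ± 0.0793 in Disp1_WT (SD, n = 4 each). At E8.5 the ratio was 2.86 ± 0.392 in Myo10_m1J and 2.59 ± 0.160 in Myo10_WT (SD, n = 5 and 4). All 8 E9.5 embryos, at most 1.16, were below all 9 E8.5 embryos, at least 2.40, and within an age the genotypes overlapped. The ratio of Gas1 to Cdon was 3.66 ± 0.435 in Disp1_CS_INDEL and 3.73 ± 0.168 in Disp1_WT, against 2.00 ± 0.161 in Myo10_m1J and 2.00 ± 0.312 in Myo10_WT. That of Sufu to Kif7 was 2.66 ± 0.175 in Disp1_CS_INDEL and 2.36 ± 0.277 in Disp1_WT, against 1.14 ± 0.225 in Myo10_m1J and 1.17 ± 0.126 in Myo10_WT. Both were apart between the ages and overlapped between genotypes. Other pairs differed less between the ages. Evc2 to Evc lay between 1.68 and 2.39 over all 17 embryos. It was narrowly apart between the wild types, at 1.683 to 1.922 in Disp1_WT and 1.927 to 2.151 in Myo10_WT, and overlapped between the mutants. Cdon to Boc averaged 1.52 in Disp1_CS_INDEL, 1.41 in Disp1_WT, 1.46 in Myo10_m1J and 1.27 in Myo10_WT. Ptch1 to Smo was lower at E9.5 in both genotypes, at no more than 0.276 against no less than 0.335 at E8.5.

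**Figure D4:**
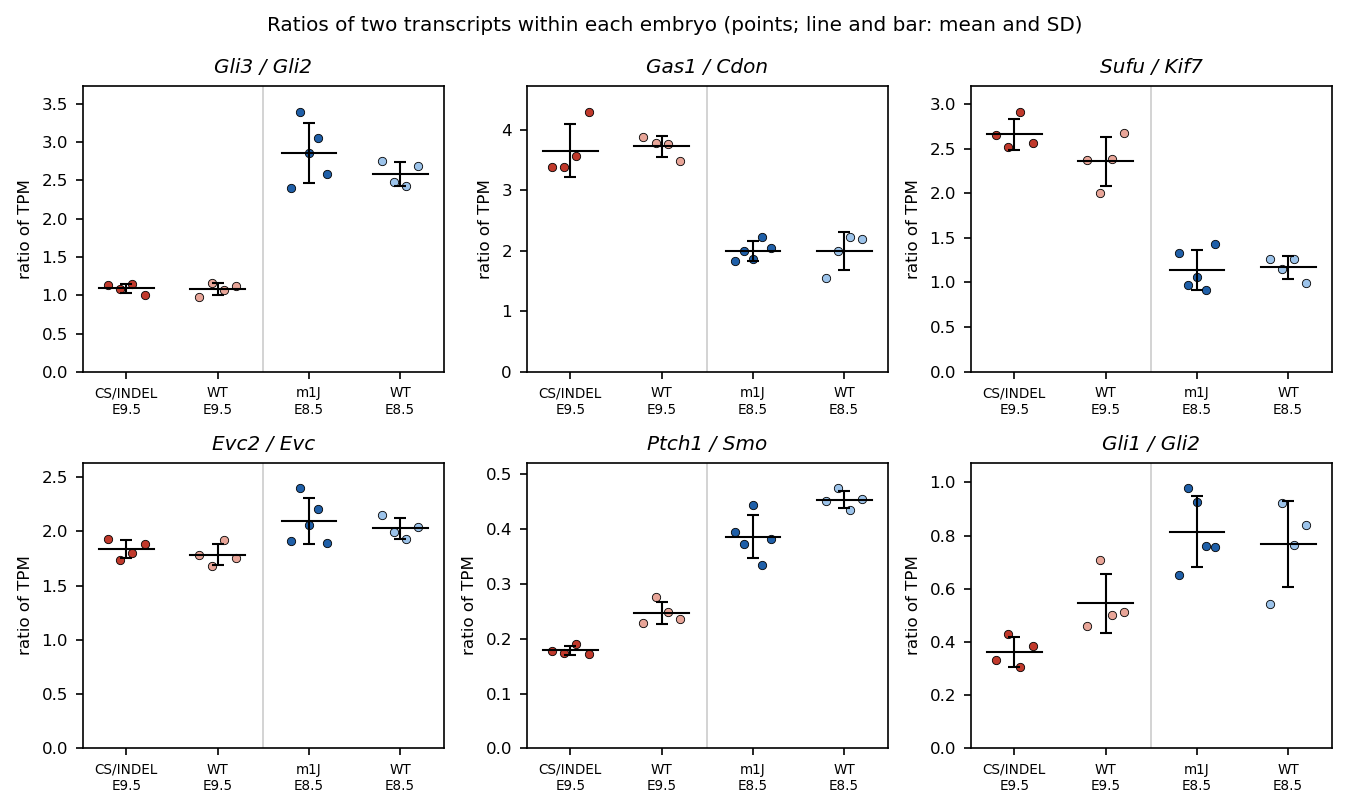
Ratio of TPM of 2 transcripts within each embryo (points), by group, with the mean as a line and the SD as a bar. Gli3 to Gli2, Gas1 to Cdon and Sufu to Kif7 separate the ages without overlap, and Ptch1 to Smo and Gli1 to Gli2 separate Disp1_CS_INDEL from Disp1_WT.

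Counts of other pathway genes called between the ages are read against the shares of all genes, 69.4% higher and 10.2% lower as deposited, and 36.4% higher and 36.2% lower after median-of-ratios scaling. Of 7 ligand and release genes, 6 were called higher and 1 lower in Disp1_WT than in Myo10_WT, both as deposited and after median-of-ratios scaling. Shh, the ligand of notochord and floor plate, had log2 differences of 1.75 as deposited and 1.13 after scaling, and the ligand Ihh had -1.79 and -2.26. The secreted release factors Scube1 and Scube3 were at 2.64 and 1.82 as deposited, and at 2.05 and 1.17 after scaling. Of 3 outputs, 2 were called higher as deposited, Gli1 at 0.99 and Hhip at 0.52, the last of which turned to -0.10 after protein-coding scaling. After median-of-ratios scaling 1 was called higher, Gli1 at 0.36, and 1 lower, Ptch1 at -0.86, which as deposited was at -0.19 (limma adjusted p = 0.102). Of 23 other reception and transduction genes, 20 were called higher and 1 lower as deposited, and 13 higher and 5 lower after scaling. Among them were Lrp2, a large endocytic receptor that binds Shh, at -2.98 and -3.62, Spop, which targets Gli proteins for degradation, at 1.91 and 1.24, and Prkaca, a catalytic subunit of the kinase that primes Gli3 for trimming, at 1.34 and 0.66. Of 15 cilium transport genes, 10 were called higher and 1 lower as deposited, against 4 higher and 7 lower after scaling. The counts of the outputs and of the cilium transport genes lie near these shares. The intraflagellar transport genes Ift52 and Ift88 were at 0.67 and -0.48 after scaling, and at 1.33 and 0.13 as deposited.

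Likeness of pattern was measured as the root mean square difference of log2(TPM + 1), each gene centred on its own mean, over the 17 libraries and among 9980 genes with a mean of at least 5 TPM. The libraries share age and make-up, so these values are descriptions. Nearest to Smo were Fkbp4 and Mbtps1 at 0.0413 and 0.0430. Nearest to Gas1 were Homer3 and Twist1 at 0.129 and 0.145. Cdon was nearest to Eya1 at 0.123, and Boc to Slc22a17 at 0.136. Nearest to Gli2 was Auts2 at 0.0972, to Gli3 Pakap_2 at 0.0948, to Sufu Mlxip at 0.0648 and to Kif7 Igf1r at 0.101. Evc was nearest to Gba2 at 0.0822 and Evc2 to Mapkapk5 at 0.0662. Within the set, Cdon was the fourth nearest of all genes to Boc at 0.165, and Evc2 was at rank 34 from Evc at 0.103. Gli2 and Sufu were each other's nearest member at 0.172, at ranks 98 and 148.

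In the GENCODE vM21 annotation, Gas1 shares 19.9% of its exonic bases with Gm48488 on the opposite strand, and Kif7 shares 19.1% with 9330171B17Rik and 1.11% with Ticrr. Whether the counting used strand is not stated, and without strand reads from such pairs cannot be told apart. Gm48488 averaged 0.083 TPM, 9330171B17Rik 0.029 TPM and Ticrr 15.6 TPM over the 17 libraries. The other 8 members overlapped no other annotated exon.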

How the data were processed

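Single whole embryos were frozen while genotyped and their RNA was extracted and sequenced, per the labels' protocols, with a TruSeq RNA kit. The authors deposited TPM for every library in 1 table, and the submitters' processing notes name the build GRCm39 (mm39). Aligner, quantifier, annotation and strand setting: not given in the sources used here. Groups came from the sample titles. Members and gene lists were chosen with earlier results of these data known. Values became log2(TPM + 1), which understates the change of low genes. A gene entered a comparison when 4 or more of its libraries reached a TPM of 1. Differences were tested with limma 3.58.1 (R 4.3.3), trend on, and p-values were adjusted over all genes by Benjamini-Hochberg, with calls at 0.05. Each comparison was fitted alone, and the difference of the mutant effects in a fit of all 17 libraries. For single genes an exact permutation test was used, two-sided as double the smaller one-sided p. P-values measure the spread between embryos.

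Median-of-ratios scaling used genes above 0 in every library of a fit, and coding scaling the summed TPM of protein-coding genes without histone and mitochondrial genes. Named were all 10 members, the targeted genes, Shh, Ptch1, Gli1 and Hhip, called genes of each pathway list among the 4 with the smallest p, and for likeness the nearest genes. Ift88 was named after its values were seen. Exon overlaps came from GENCODE vM21, and motif searches used Python 3.11.15. The gene test was tested on simulated data. Other settings tried were median-of-ratios scaling, a replicate block, the pseudocount 0.1, an unfiltered table, a mean of 5 TPM or more as filter, trend off, and each library left out. Coding scaling, a pair of embryos left out and scaling without Myo10_WT replicate 1 were added after seeing the data.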

Additional observations from a re-analysis of the deposited data

Results flagged for a closer look

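Evc in Myo10_m1J had 1 embryo far from the others. Replicate 4 held 3.98 TPM, and the other 4 held 5.62 to 6.00 TPM. The gap to the nearest embryo was 0.812 of the whole range, above the 95% limit of 0.71 for 5 samples. Gli1 in the same group had 4.80 TPM in replicate 4, with a gap of 0.823 of the range. That library had the largest structural RNA share of all, 44.5%, and the smallest size factor, 0.615. After median-of-ratios scaling over all 17 libraries, Evc in this group was 6.47 in replicate 4 and 6.78 to 8.16 in the other 4. The part that the make-up of that library plays was not tested. In all, 52 groups of values were examined this way, and chance marks about 1 group in 20.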

How the results depend on the processing

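In both mutant comparisons and in the difference of the mutant effects, 0 of 10 members passed under every alternative run. Between the ages 8 passed, 5 after median-of-ratios scaling (3 higher, 2 lower), 7 after coding scaling (3 higher, 4 lower), and 8 to 10 with single libraries left out. Of all genes, 69.4% were called higher and 10.2% lower as deposited. The shares were 36.4% and 36.2% after median-of-ratios scaling, and 27.4% and 44.5% after coding scaling. The members' counts lie near these shares. Signs turned as follows, on the log2 scale. In Disp1_CS_INDEL minus Disp1_WT, leaving out single libraries gave -0.0414 to 0.0398 for Smo, -0.0216 to 0.0610 for Sufu, -0.0147 to 0.12 for Gli2 and -0.0169 to 0.17 for Gli3. Without the 2 embryos low in caudal markers Gli2 was at -0.0587, Gli3 at -0.0664 and Sufu at -0.0444. In Myo10_m1J minus Myo10_WT, median-of-ratios scaling gave 0.0302 for Smo, and that scaling without Myo10_WT replicate 1 gave 0.0193 for Gas1 and 0.12 for Cdon. In Disp1_WT minus Myo10_WT, median-of-ratios scaling gave -0.38 for Gli3, -0.34 for Kif7 and -0.15 for Evc2. Without Myo10_WT replicate 1 as well these were -0.24, -0.33 and -0.12, with Smo at -0.0421. Coding scaling gave -0.18 for Smo, -0.56 for Gli3, -0.51 for Kif7, -0.14 for Evc and -0.32 for Evc2. In the difference of effects, median-of-ratios scaling gave -0.0349 for Smo, -0.0043 for Evc and -0.00078 for Evc2, and without Myo10_WT replicate 1 -0.0071 for Evc and -0.0308 for Evc2. Scaling sets each library's total, and the cause of the other turns was not tested.

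Replicate numbers did not pair embryos: same-numbered embryos correlated at -0.24 to 0.35 at E9.5 and -0.29 to 0.46 at E8.5 in their deviations, and 2 of 8 and 1 of 8 embryos correlated best with their own number. With the replicate block, 0 members passed in each mutant comparison and in the difference of effects, and 9 passed between the ages. Without the block, 69.4% of all genes were called higher and 10.2% lower between the ages. TPM gives no depth, so what depth limits is unknown.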
